A study of Mus musculus with 24 samples.

Results

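The array positions that were brighter in splenic CD4+ T cells than in peritoneal macrophages were examined for their response to depleted uranium (DU). A position is a cDNA printed on a nylon membrane of mouse cytokine-related genes, and it carries a name made of a letter, a number and U or L. Intensities were divided by the mean of their array, so that a relative intensity of 1 is the array mean, and were taken to log2. A position was called CD4+ T-cell-selective when its mean log2 level over the 6 T-cell arrays, control and DU alike, was 1 or more above its mean over the 6 macrophage arrays, which is a 2-fold difference. Of 531 positions in the series, 515 had a value above 0 on every array, and 513 of these were used after C3U and A24L, whose values were identical in 12 of 12 T-cell columns and in 0 of 12 macrophage columns, were set aside. The rule gave 91 CD4+ T-cell-selective positions, 17.7% of the 513, beside 49 positions with a difference of -1 or lower and 373 between these limits. Because measured values chose the 91 positions, the difference between cell types is a description and was not tested.

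RNA came from 4 groups of 3 experiments each, and every array held 2 spots per position that were averaged. The T cells were isolated from the spleens of DO11.10 mice, which carry a transgenic T-cell receptor, and were cultured in plates coated with anti-CD3, without DU or with 100 μM DU. The macrophages were elicited in the peritoneum of BALB/c mice with thioglycollate and were cultured without DU or with 50 μM DU. DU was given as uranyl nitrate, the exposure lasted 24 hr, and each preparation pooled cells of several young adult mice. The macrophages had adhered and been kept in culture overnight before the exposure, a step not described for the T cells. Cell type, mouse line, stimulation, culture before exposure and dose differed together. Their parts in any difference between the T-cell and macrophage arrays cannot be told apart. The files and tables used here do not pair positions with genes, so the 91 positions are given by name only, and neither the T-cell label nor the macrophage label could be set against marker genes.

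Engagement of CD3, the signaling part of the T-cell receptor complex, starts transcription of cytokines, cytokine receptors and surface molecules in CD4+ T cells, which direct other immune cells through these products. Thioglycollate-elicited macrophages are inflammatory phagocytes with a cytokine and receptor repertoire of their own. A cytokine membrane hybridized with RNA of each cell type is therefore read as an outline of which such genes the cells transcribe, and the DU arrays as a measure of whether uranium changes it. Total RNA from a culture cannot separate fewer cells transcribing a gene from less RNA per cell.

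The 91 positions were 1.01 to 3.11 higher in CD4+ T cells on the log2 scale, with a median of 1.30, or 2.47-fold. Their median relative intensity was 0.601 in T cells, with a range of 0.158 to 10.9. In macrophages it was 0.213, with a range of 0.0552 to 3.02. Over all 513 positions the medians were 0.423 in T cells and 0.314 in macrophages. In T cells 29 of the 91 lay above the array mean, beside 118 of the 513, and in macrophages 6 of the 91 did, beside 92 of the 513. The difference had a median of 1.48 in control arrays and 1.19 in DU arrays. It reached 1 in both conditions for 64 positions. It was below 1 in the control arrays for 4 and below 1 in the DU arrays for 23. All 6 T-cell arrays lay above all 6 macrophage arrays for 74 of the 91, beside 104 of all 513 positions (20.3%), a count that the rule itself shaped.

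**Figure D1:**
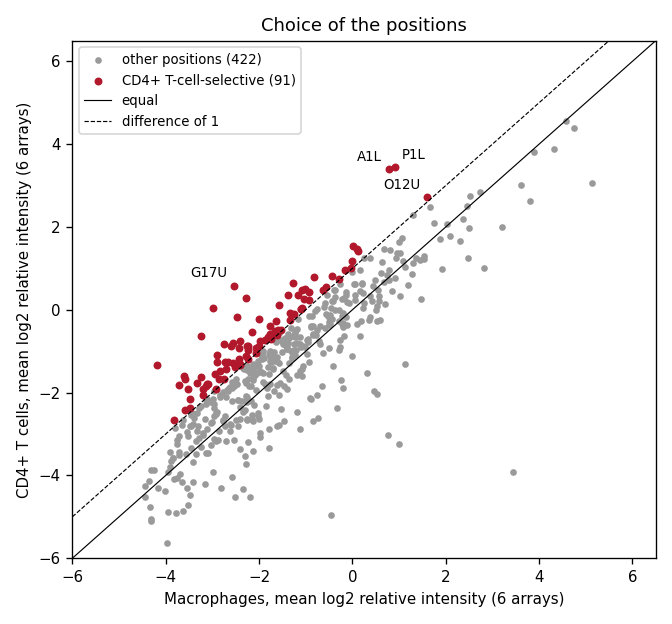
Mean log2 relative intensity of each of 513 positions in CD4+ T cells (vertical axis, 6 arrays) against macrophages (horizontal axis, 6 arrays), with lines of equality and of a difference of 1. The 91 CD4+ T-cell-selective positions, drawn in red, lie above the dashed line by construction, and A1L and P1L are the brightest of them.

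The threshold cut through a continuous range of differences. C11L and D14L were the last positions inside it, and both had a difference of 1.01. K13U (0.998303) and C8L (0.998143) were the first outside. H18L, which is described below for its response to DU, was also close to the threshold, with a difference of 1.05.

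G17U had the largest difference, 3.11. Its relative intensity in T cells was 1.42, 1.85 and 1.60 in control experiments 1, 2 and 3 and 1.01, 1.40 and 1.90 with DU. In macrophages it was 0.146, 0.0788 and 0.307 without DU and 0.102, 0.258 and 0.287 with DU. The lowest T-cell array thus lay well above the highest macrophage array. F10U followed with a difference of 3.02. It measured 1.35, 1.12 and 1.08 in control T cells and 1.00, 0.849 and 0.842 in DU T cells, against 0.0899 to 0.201 in the macrophages with DU and 0.0710 to 0.195 in those without. For F10U the 3 DU T-cell arrays all lay below the 3 control T-cell arrays. B12U had a difference of 2.85. It lay between 0.342 and 0.484 in T cells, around the median of 0.423 of all positions there, and between 0.0447 and 0.0635 in macrophages.

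A1L and P1L were the brightest of the 91 positions in T cells. A1L ranged from 8.02 to 16.8 in T cells and from 0.695 to 4.81 in macrophages, a difference of 2.62. P1L ranged from 7.23 to 17.4 in T cells and from 0.643 to 5.52 in macrophages, a difference of 2.53. These 2 positions had the only names with the letter A or P and the only ones with the number 1 among the 513. The series also held A24L and P24L, which were not among the 513. Whether they carry a gene or a control cDNA is not given in the sources used here. O12U came next in brightness, with 5.44 to 7.63 in T cells and 1.75 to 4.38 in macrophages.

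Positions that followed G17U across the 12 arrays were picked by the correlation of their log2 values. I18U had an r of 0.993, F10U 0.979 and G14U 0.977. That likeness includes the difference between the cell types, which the rule used. Within the 6 T-cell arrays r was 0.749 for I18U, -0.0885 for F10U and 0.298 for G14U. Within the 6 macrophage arrays it was 0.990, 0.972 and 0.902. The positions were picked on these same arrays, so the values are a description only.

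The 91 positions held 17.5 to 21.6% of the summed intensity of the T-cell arrays and 4.91 to 10.2% of that of the macrophage arrays. The 10 brightest of all positions held 21.2 to 29.9% in T cells and 27.1 to 44.3% in macrophages. With scaling to the array mean a brighter top lowers every other relative value, and its part in the differences was not tested. The median difference over all 513 positions was 0.34 with scaling to the mean and -0.14 with scaling to the median, a shift of -0.47. With scaling to the median 32 positions passed the rule and all 32 were among the 91. With quantile normalization 49 passed, 43 of them among the 91. Every one of the 91 stayed higher in T cells under both, with a lowest difference of 0.54 and 0.59.

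The macrophage experiments did not place these positions alike. Experiments 1, 2 and 3 gave the 91 a median relative intensity of 0.193, 0.155 and 0.336 in control macrophages, and of 0.163, 0.215 and 0.358 after DU. In T cells it was 0.683, 0.635 and 0.592 without DU and 0.642, 0.546 and 0.641 with DU. Macrophage experiment 3 was therefore closest to the T cells in both conditions. Its control array was the highest of the 3 macrophage controls for 75 of the 91 positions and for 344 of all 513 (67.1%), and its DU array was the highest of the 3 for 77 of the 91 and 298 of the 513 (58.1%). Against macrophage experiments 1, 2 and 3 taken alone, the median difference was 1.66, 1.61 and 0.84. It reached 1 for 87, 87 and 40 of the 91 positions. Without both arrays of macrophage experiment 3 the rule gave 143 positions, 90 of the 91 among them. Without macrophage experiment 1 or 2 it gave 65 or 71.

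**Figure D2:**
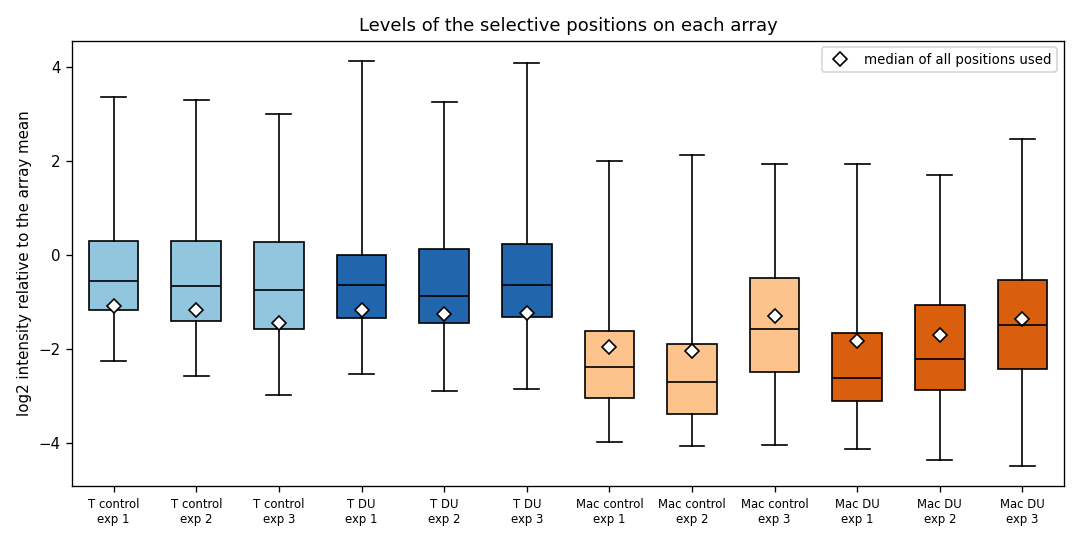
Log2 intensity relative to the array mean of the 91 positions on each of the 12 arrays (T, CD4+ T cells; Mac, macrophages; exp, experiment). Boxes span the quartiles with the median as a line, whiskers reach the lowest and highest position, and diamonds mark the median of all 513 positions, above which the box medians lie in T cells and below which they lie in macrophages.

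The spread between experiments was wider in macrophages than in T cells. The median SD of the 91 positions over 3 experiments was 0.61 in macrophage controls and 0.43 in macrophages with DU on the log2 scale, against 0.20 and 0.24 in T cells. Over all 513 positions the same medians were 0.44, 0.34, 0.23 and 0.27. Duplicate spots of the 91 positions differed by a median of 3.42 to 6.03% over the 4 groups, less than the experiments did.

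The first question of the DU arrays was whether these positions respond in the T cells that mark them. Within experiments, the median log2 ratio of DU to control over the 91 positions was -0.13, -0.20 and 0.19, beside -0.04, -0.13 and 0.16 over all 513. DU was higher for 27, 22 and 62 of the 91 positions (29.7, 24.2 and 68.1%), beside 222, 197 and 329 of the 513 (43.3, 38.4 and 64.1%). The 91 thus leaned down in experiments 1 and 2 and up in experiment 3, as all positions together did. With scaling to the median the same medians were -0.03, -0.12 and 0.00. The 32 positions that passed the rule under every scaling between arrays gave -0.13, -0.15 and 0.11 with scaling to the mean.

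Averaged over experiments, the DU to control ratio in T cells ran from 0.596 for O19U to 2.11 for H18L. Its median on the log2 scale was -0.03, beside 0.03 over the 529 positions tested. It was 0.06 without the control array of experiment 1, 0.04 without the DU array of experiment 2 and -0.11 without the control array of experiment 3, so that single arrays set its sign. By this average 41 positions were higher and 50 lower, beside 283 higher and 230 lower of all 513. On the log2 scale 83 of the 91 lay within 0.5 of 0, as did 466 of the 513. A lower value in all 3 experiments was seen for 20 positions (22.0%), beside 17.0% of all 513. A higher value in all 3 was seen for 6 (6.59%), beside 15.4%. All 3 DU arrays lay below all 3 control arrays for 9 positions (9.89%, background 5.65%) and above them for P1L and E13L alone (2.20%, background 4.29%). No test was made of these shares against their background.

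**Figure D3:**
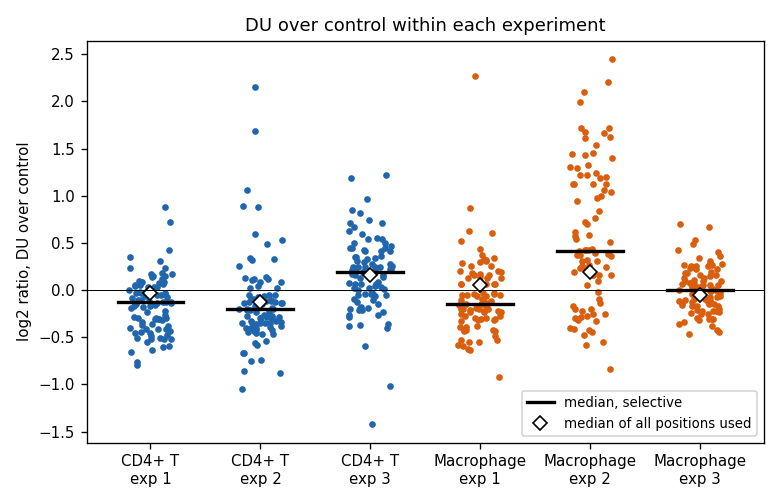
Log2 ratio of DU to control for each of the 91 positions within each experiment, CD4+ T cells in blue and macrophages in orange, with the median of the 91 as a bar and the median of all 513 positions as a diamond. The ratios scatter on both sides of 0 in every experiment, and those of macrophage experiment 2 spread the most, with a median of 0.41.

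Without a block for the experiment, limma called 0 of the 91 at a Benjamini-Hochberg adjusted p of 0.05 in T cells (0.0% of the 529 tested), 0.881 being the smallest value. Before adjustment 6 of the 91 (6.59%) had a p under 0.05, beside 4.73% of all positions tested. P1L, H18L and E13L were higher with DU (background 2.27%), and D23U, D17U and E23L were lower (background 2.46%). The count of 6 became 0 without scaling (background 0.378%) and 1 with all groups in 1 fit (background 2.08%). It was 3 without the control array of experiment 2 (background 2.13%) and 10 with quantile normalization (background 7.18%). E13L and E23L are named here after their values were seen. Log2 ratios in T cells carried a median standard error of 0.22. For a single position an exact permutation test of 3 against 3 arrays cannot give a p below 0.1. Blocking by experiment gave an unadjusted p under 0.05 for 11 of the 91, beside 13.0% of all positions. Of these, 4 were higher (background 7.56%) and 7 lower (background 5.48%). An adjusted p under 0.05 was found for H18L only, which was higher, beside 1.7% of all positions called in either direction and 0.945% called as higher.

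Among the 91 positions H18L had the largest average ratio in both cell types. Its relative intensity in control T cells was 1.47, 1.32 and 1.40, and with DU it was 1.36, 5.89 and 3.19. The controls lay close together, while DU experiment 1 lay among them and DU experiments 2 and 3 lay above. The log2 ratios were -0.11, 2.15 and 1.19. In limma without the block the log2 ratio was 1.08 with a standard error of 0.43 and an adjusted p of 0.881. With the experiment as a block the standard error was 0.27 and the limma adjusted p was 0.0329. That call was lost in the blocked limma fit with scaling to the median (log2 ratio of 1.08, adjusted p of 0.390) and with quantile normalization (1.27, adjusted p of 0.284), although neither log2 ratio was smaller. It was lost as well when experiment 2 was left out, at a log2 ratio of 0.54 and a limma adjusted p of 0.762, and when experiment 3 was left out, at 1.02 and 0.516. Without experiment 1, the one in which DU was not higher, the log2 ratio was 1.67 at a limma adjusted p of 1.61e-05. Each fit with an experiment left out had few arrays from which to estimate the spread.

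P1L was the other position named as higher. It measured 9.48, 8.61 and 7.23 in control T cells and 17.4, 9.50 and 16.9 with DU. The lowest DU array, experiment 2, was only just above the highest control. The limma log2 ratio was 0.75 with a standard error of 0.27 (adjusted p of 0.881, and 0.0895 with the block). In macrophages P1L was 1.70, 0.643 and 3.83 without DU and 1.13, 1.74 and 5.52 with DU, so that the groups overlapped. Experiment 2 had the lowest log2 ratio of P1L in T cells, 0.14. Leaving it out of the blocked limma fit brought P1L to a log2 ratio of 1.05 at an adjusted p of 0.00744. That fit kept only experiments 1 and 3, so few arrays gave its spread. E13L, below the array mean on every array, measured 0.256, 0.222 and 0.246 in control T cells and 0.279, 0.716 and 0.349 with DU. Its 3 DU arrays lay above the controls, by little in experiment 1 and most in experiment 2.

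D23U and D17U were the positions named as lower. D23U measured 1.02, 1.18 and 1.42 in control T cells and 0.673, 0.868 and 0.702 with DU. No DU array reached a control array. The limma log2 ratio was -0.69 with a standard error of 0.22 (adjusted p of 0.881, and 0.0912 with the block). D17U measured 0.625, 0.635 and 0.768 in control T cells and 0.425, 0.380 and 0.508 with DU, again without overlap. Its limma log2 ratio was -0.63 with a standard error of 0.21 (adjusted p of 0.881, and 0.111 with the block). E23L was the most even of the 3, with 0.239, 0.224 and 0.207 in controls and 0.172, 0.167 and 0.156 with DU, but it lay far below the array mean.

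**Figure D4:**
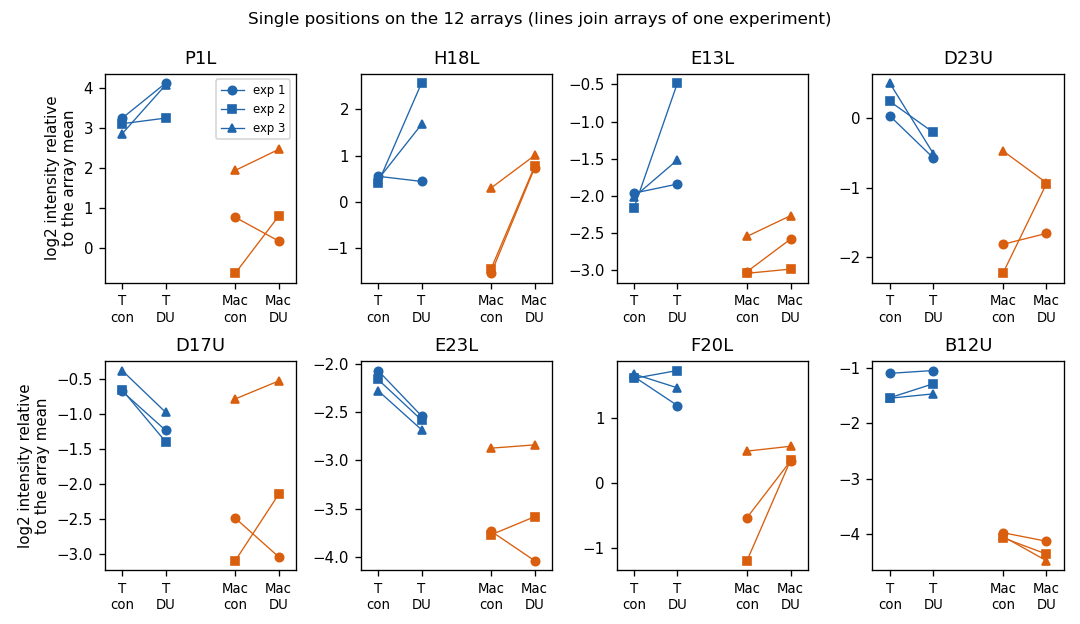
Log2 intensity relative to the array mean of 8 positions in control (con) and DU arrays of CD4+ T cells (T, blue) and macrophages (Mac, orange), with lines joining the arrays of one experiment (exp) and a vertical scale of its own in each panel. D23U, D17U and E23L are lower in all 3 DU arrays of T cells than in any control, H18L is not higher in T-cell experiment 1, and H18L is higher in all 3 macrophage DU arrays.

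In macrophages, where these positions were weak, the median log2 ratio of DU to control over the 91 was -0.14, 0.41 and 0.00 in experiments 1, 2 and 3, beside 0.05, 0.19 and -0.06 over all 513. DU was higher for 31, 68 and 46 of the 91 (34.1, 74.7 and 50.5%), beside 282, 336 and 201 of the 513 (55.0, 65.5 and 39.2%). Experiment 2 thus stood apart, and it held the largest of the 3 ratios in size for 66 of the 91 positions and for 278 of all 513. Its control array was the lowest of the macrophage controls for 70 of the 91 and 295 of the 513 (57.5%). With scaling to the median the medians were -0.26, 0.07 and 0.09, and over all 513 positions -0.06, -0.15 and 0.03. Each time the 91 lay below all positions in experiment 1 and above them in experiments 2 and 3.

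The average ratio in macrophages ran from 0.814 for B12U to 3.30 for H18L. Its median on the log2 scale was 0.14, beside 0.05 over the 531 positions tested, with 64 higher and 27 lower, beside 309 higher and 204 lower of all 513. With scaling to the median it was 0.02. It was 0.42 without the control array of experiment 3, and -0.08 without the DU array of that experiment or without the control array of experiment 2, so that single arrays set its sign. A higher value in all 3 experiments was seen for 10 positions (11.0%, background 17.7%) and a lower value for 9 (9.89%, background 10.7%). All 3 DU arrays lay above all controls for H18L alone (1.10%, background 2.34%) and below them for B12U, G7U, B13U and F6U (4.40%, background 3.31%), which apart from B12U and F6U are named after their values were seen.

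In macrophages limma called none of the 91 after adjustment, either without the block (0.0% of 531 positions called, smallest adjusted p 0.996) or with it (0.0%, smallest 0.769). An unadjusted p under 0.05 was found for H18L alone (background 2.07%, and 1.69% as higher), and with the block for H18L and F20L (background 4.71%, and 3.95% as higher). Log2 ratios in macrophages carried a median standard error of 0.39 without the block and of 0.20 with it. Without the macrophage control of experiment 3 the unblocked count was 7 of 91 (7.69%), all higher, beside 41 of 531 tested (7.72%), and H18L passed at an adjusted p of 0.0134 in limma. H18L also passed after adjustment with the block and scaling to the median, and in a Z-test described below.

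H18L measured 0.345, 0.370 and 1.23 in macrophage controls and 1.67, 1.70 and 2.00 with DU. The DU arrays lay close together and above every control, the control of experiment 3 being the nearest. The log2 ratios were 2.27, 2.20 and 0.70, and limma gave 1.72 with a standard error of 0.49 and an adjusted p of 0.996. H18L was thus higher with DU in 5 of 6 comparisons within an experiment, T-cell experiment 1 being the exception. F20L measured 0.693, 0.439 and 1.41 in macrophage controls and 1.27, 1.27 and 1.48 with DU. Here the control of experiment 3 lay above 2 of the DU arrays, and the limma log2 ratio was 0.83 with a standard error of 0.42 (adjusted p of 0.996).

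B12U and F6U were the positions named as lower in macrophages. B12U measured 0.0635, 0.0596 and 0.0606 in controls and 0.0571, 0.0486 and 0.0447 with DU. These were among the dimmest values of the 91, and the groups did not overlap. The limma log2 ratio was -0.30 with a standard error of 0.23 (adjusted p of 0.996). F6U measured 0.472, 0.466 and 0.458 in controls and 0.454, 0.318 and 0.393 with DU, with no overlap and a limma log2 ratio of -0.28 with a standard error of 0.24 (adjusted p of 0.996). Without scaling between arrays both log2 ratios turned positive, 0.09 for B12U and 0.11 for F6U.

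Whether DU acted differently on these positions in the 2 cell types was tested as an interaction in limma, T-cell ratio minus macrophage ratio. Its median over the 91 positions was -0.12, beside -0.04 over the 529 positions tested, and 60 of the 91 were below 0, beside 288 of the 529. Single macrophage arrays set the sign of this median, which was 0.09 without the DU array of experiment 3, 0.04 without the control array of experiment 2 and -0.42 without the control array of experiment 3. It was 0.00 with scaling to the median and -0.52 without scaling. None of the 91 had an unadjusted p under 0.05 (background 1.51%), and none passed after adjustment (0.0% called). With experiment as a block, J10U, F20L, D23U and D17U had an unadjusted p under 0.05 (background 5.29%), all with a lower ratio in T cells (background 3.4%), and none passed after adjustment (0.0% called, adjusted p of 0.792 for each of these 4). Without the macrophage control of experiment 3 the unblocked count was 15 of 91 (16.5%), all lower in T cells, beside 39 of 529 tested (7.37%), and none passed after adjustment.

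By the smallest unadjusted p, the positions named for a higher ratio in T cells than in macrophages were O12L and B12U, and those named for a lower one were F20L and D23U. For O12L the limma interaction was 0.67 with a standard error of 0.45, and for B12U 0.42 with 0.32. For F20L it was -1.01 with a standard error of 0.48, and for D23U -1.02 with 0.54. The limma adjusted p was 1.00 for each of the 4. O12L measured 0.440, 0.378 and 0.265 in control T cells and 0.591, 0.328 and 0.516 with DU, so its groups overlapped. In macrophages it measured 0.204, 0.180 and 0.245 without DU and 0.131, 0.152 and 0.254 with DU, and overlapped again.

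Across the 91 positions the average log2 ratios of T cells and macrophages had an r of 0.104, and -0.146 across the 90 positions other than H18L. Positions of one array share its scaling and its RNA and are not independent. F14U, G22L, J10L and E13L were higher with DU in all 6 comparisons within an experiment (4.40%, background 3.9% of all 513), and F6U was lower in all 6 (1.10%, background 2.14%). B12U was higher in all 3 T-cell experiments and lower in all 3 macrophage experiments (1.10%, background 1.36%), and none of the 91 showed the opposite pattern (background 1.95%). These positions, apart from B12U and F6U, are named after their values were seen.

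The log2 ratios of the 91 positions were also correlated between experiments of one cell type, as a description. In T cells r was 0.324 between experiments 1 and 2, 0.397 between 1 and 3, and 0.335 between 2 and 3, beside 0.312, 0.158 and 0.299 across all 513. In macrophages it was -0.164, -0.0484 and 0.471, beside -0.0459, -0.0459 and 0.504 across all 513, so that there only experiments 2 and 3 had a positive r. The spread of the 91 log2 ratios also differed, with an SD over positions of 0.30, 0.47 and 0.41 in T-cell experiments 1, 2 and 3 and of 0.40, 0.74 and 0.24 in macrophages.

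The names of the positions were read as a grid, with the letter as row and the number as column. Letters A to H held 58 of the 91 positions among 244 used (23.8%), and letters I to P held 33 among 269 (12.3%). Names ending in U made up 45 of the 91 and names ending in L 46. The 91 positions lay at 82 addresses, and at 9 of them both the U and the L position were selective. At these 9 addresses the r of U and L over the 12 arrays ran from 0.580 at O12 to 0.965 at E11, a value that includes the difference between cell types used by the rule. By quartile of mean level over all 12 arrays, from dim to bright, the 91 divided as 14, 30, 29 and 18. Whether the place on the membrane had a part in the choice of positions was not tested.

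**Figure D5:**
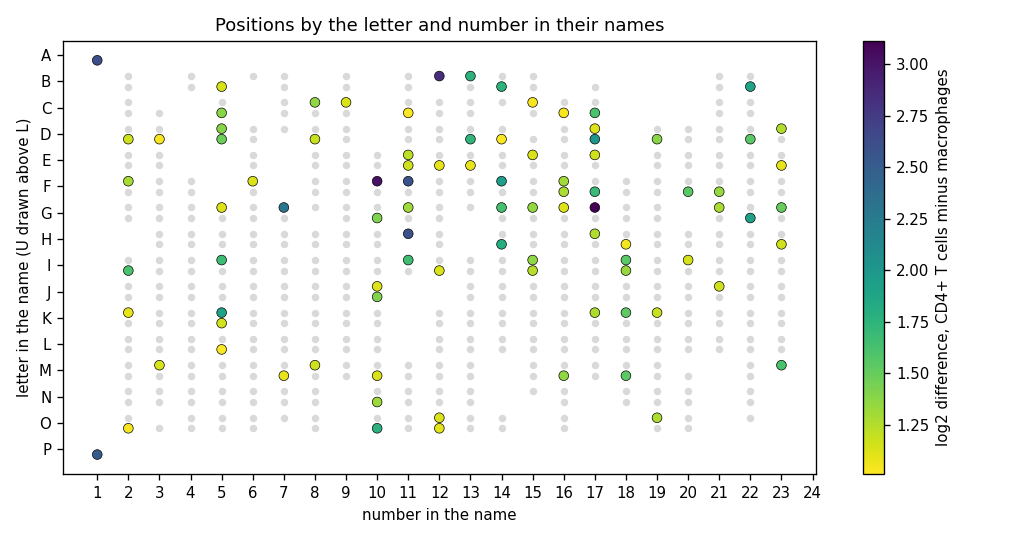
The 513 positions drawn by the letter (vertical) and number (horizontal) in their names, those ending in U just above those ending in L, with the 91 CD4+ T-cell-selective positions coloured by their log2 difference between CD4+ T cells and macrophages. The letters A to H hold 58 of the 91, and A1L and P1L stand alone at the number 1.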

How the data were processed

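Total RNA was labeled with radioactive P33 and hybridized to a nylon cytokine cDNA array. The deposited values are intensities, 1 column per duplicate spot (24 columns). The authors name background subtraction and scaling to the array mean as steps of their analysis, and whether either was applied to the deposited intensities is not given in the sources used here. Array means ran from 241379 to 596701 in T cells and from 88701 to 406816 in macrophages, and 17 positions held a 0 in any column. The number of arrays limits the precision.

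Values of 0 were set to missing, the rest of a column was divided by its own mean, log2 was taken and duplicate spots were averaged. DU was compared with control by limma 3.58.1 in R 4.3.3 (lmFit, eBayes, two-sided), a moderated test in place of the Z-test of the methods. It was run over positions measured in 2 or more experiments of every group compared. Benjamini-Hochberg adjustment was made over all of these positions, with a threshold of 0.05. The experiments are the biologic replicates. Tables and plots used Python 3.11.15, pandas 2.3.3, numpy 2.4.6 and matplotlib 3.10.9, and the fit was tested on simulated data.

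Experiment numbers were taken as pairs. Deviations from the group means correlated between same-numbered control and DU arrays by 0.537, 0.274 and 0.446 in T cells and 0.418, 0.268 and 0.849 in macrophages, over 513 positions. Over the 91 alone they were 0.498, 0.0807 and 0.130, and 0.400, -0.153 and 0.860. The methods compare independent conditions, so the fit without the block is given first.

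The positions and all choices were made with earlier results of these data known. Positions named were, per DU comparison, at most 2 higher and 2 lower with the smallest unadjusted p and those past an adjusted p of 0.05 with or without the block, and, as a description, the 4 largest differences, the 2 brightest in T cells, the 2 on either side of the threshold and the 3 most like the first. Alternatives were other scalings (median, quantile, none), 1 duplicate spot, the experiment block, arrays left out, the dimmest 25% left out, an intensity trend, all groups in 1 fit, a Z-test, other thresholds, control or DU arrays alone, and zeros set to the lowest value. This Z-test took the spread from a curve fitted over all positions tested, in place of the position's own spread. It was not a rerun of the Z-test of the methods.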

Additional observations from a re-analysis of the deposited data

How the results depend on the processing

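The number of selective positions was 32 with median scaling, 49 with quantile normalization and 322 without scaling, 31 and 9 at a difference of 1.5 and 2 or more, 78 to 111 with 1 array left out, and 65 to 143 with both arrays of 1 experiment and cell type left out. Of the 91, 87 were among the 108 chosen on control arrays alone and 68 among the 77 chosen on DU arrays alone. The cause of these and the following changes was not tested.

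In T cells the count past an adjusted p of 0.05, 0 without the block, was 3 with the Z-test (beside 10 of all tested), 1 in the replicate block (beside 9), and 0 to 1 with 1 array left out (1 without DU experiment 1, beside 4). The count past an unadjusted p of 0.05, 6, became 10 with quantile normalization (11.0%, beside 7.18% of all tested), 0 without scaling (beside 0.378%), 1 with all groups in 1 fit (1.10%, beside 2.08%), 1 among the 9 positions at 2 or more (11.1%, beside 4.73%), and 3 to 7 with 1 array left out (3.30 to 7.69%, beside 2.13 to 7.75%, the lowest being without control experiment 2). Replicate block fits, of which those with an experiment left out or another scaling were chosen after seeing the data, gave 11 (12.1%, beside 13.0%), and 12 with median scaling (13.2%, beside 11.5%), 16 with quantile normalization (17.6%, beside 13.6%) and 7 to 13 with 1 experiment left out (7.69 to 14.3%, beside 5.81 to 11.7%). Past the adjusted p they gave 0 to 3, beside 0 to 17 of all tested. The median log2 ratio was -0.11 to 0.06 with 1 array left out.

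In macrophages the count past an adjusted p, 0, was 1 with the Z-test, 1 in the block with median scaling, and 0 to 1 with 1 array left out, and the same counts held over all tested. The count past an unadjusted p, 1, became 2 (2.20%) with median scaling (beside 1.88% of all tested), in the replicate block (4.71%), with all groups in 1 fit (1.88%) and in the block with median scaling (5.84%) or quantile normalization (6.40%). It was 3 by the Z-test (3.30%, beside 3.95%), 0 among the 9 positions at 2 or more (beside 2.07%), 1 to 7 with 1 array left out (1.10 to 7.69%, beside 0.377 to 7.72%), and 1 to 6 in the block with 1 experiment left out (1.10 to 6.59%, beside 3.77 to 7.72%). The median log2 ratio was 0.53 without scaling and -0.08 to 0.42 with 1 array left out. Without scaling the log2 ratios of B12U (0.086) and F6U (0.105) were reversed.

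For the interaction the count past an unadjusted p, 0, became 2 with median scaling (2.20%, beside 2.27% of all tested), 3 with quantile normalization (3.30%, beside 2.65%), 1 with spot 2 alone (1.10%, beside 1.70%), 4 with the replicate block (4.40%, beside 5.29%) and 0 to 15 with 1 array left out (0.0 to 16.5%, beside 0.567 to 7.37%). It stayed 0 after adjustment in every setting run, as did the count over all tested. Its median was -0.52 without scaling and -0.42 to 0.09 with 1 array left out. H18L passed an adjusted p of 0.05 in T cells also with the Z-test (0.00570) and without DU experiment 1 (0.0401), and in macrophages with the Z-test (0.000783) and in the block with median scaling (0.0370). The positions named by the rule other than B12U and F6U kept their direction in all settings run. Of those other than H18L, only P1L passed an adjusted p of 0.05, in T cells.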
